A study of Mus musculus with 2 samples.

Results

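The barcodes described here are low-RNA barcodes of a single-cell RNA experiment that carried transcripts of platelet and late megakaryocyte genes. Bone marrow cells of WT mice and of Phf6 KO mice had both been transduced with a vector coding for GFP and the RUNX1 mutant S291fs, so the WT group carries the RUNX1 mutant too, and no group without it was analysed here. GFP-positive cells were transplanted, and 8 weeks later GFP-positive, lineage-marker-negative (GFP+Lin-) cells were sorted from the marrow of the recipients and made into 1 droplet library per genotype. The number of recipients, whether they were pooled, the promoter of the vector and the ages of the animals are not given in the sources used here. With 1 library per genotype there is no replicate: no p-value is given, and each 95% interval below covers counting error only.

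A barcode was kept when it had at least 500 detected genes, at most 10% of its UMIs (unique molecular identifiers, counted transcripts) on mitochondrial genes, fewer than 8000 UMIs, and at least 1 UMI of at least 3 of 7 genes, called rule genes here: Tubb1, Gp6, Itgb3, Alox12, Cd226, Gp9 and Pf4. This left 250 of the 9632 barcodes that passed the limits on genes and mitochondrial UMIs. The WT library gave 119 of 4702 (2.53%, 95% interval 2.10 to 3.02) and the KO library 131 of 4930 (2.66%, 2.23 to 3.15), a KO minus WT difference of 0.126 percentage points (-0.514 to 0.764). Of barcodes with fewer than 8000 UMIs they were 28.3% of 420 in WT and 29.9% of 438 in KO. The rule used these genes and the UMI total of the same libraries, so the levels of the rule genes and the low depth are a description of the choice and no finding.

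Megakaryocytes are the large polyploid cells of the marrow that give rise to platelets. They build granules and a demarcation membrane system, load both with adhesion receptors and clotting proteins, and extend microtubule-filled proplatelets from which platelets are shed, while the nucleus stays behind. Platelets therefore carry cytoplasmic RNA without a nucleus, whereas RNAs such as Malat1 and Neat1 are retained in the nucleus.

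The low-RNA barcodes were compared with 2 other sets of barcodes. Deep barcodes had at least 8000 UMIs and at least 3 rule genes after thinning to 4110 UMIs. There were 392 in WT and 356 in KO, with medians of 25189 and 23807 UMIs. Other low-RNA barcodes had fewer than 8000 UMIs and fewer than 3 rule genes. There were 301 in WT and 307 in KO, with medians of 4472 and 5508 UMIs. The low-RNA barcodes with rule genes held 482749 UMIs in WT and 596733 in KO. Their UMIs per barcode ran from 976 to 7760 with a median of 3367 in WT, and from 699 to 7964 with a median of 4760 in KO. The depth of the chosen barcodes was thus lower in WT than in KO. Levels are given in CPM, a gene's UMIs scaled to 1000000 UMIs summed over a set, and ratios as log2 ratios of CPM between sets.

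How often the rule is met by barcodes of other lineages was measured at equal depth. Thinned to 4110 UMIs, 6 of 1136 barcodes with neutrophil markers in WT met it (0.528%, 0.194 to 1.15), and 3 of 1068 in KO (0.281%). The shares were higher for barcodes with haemoglobin markers, at 4 of 83 in WT (4.82%) and 2 of 28 in KO (7.14%), and with dendritic cell markers, at 2 of 36 (5.56%) and 3 of 50 (6.0%). Not thinned, 5.63% and 4.12% of the neutrophil-marker barcodes met it. Just inside the limit, 20 WT and 31 KO barcodes had 3 rule genes, and just outside it 43 and 44 had 2. The median Malat1 share of UMIs was 2.65% and 3.99% in the former and 1.74% and 2.35% in the latter. On the side of depth, 18 WT and 19 KO barcodes with rule genes had 7000 to 8000 UMIs, and 14 and 10 had 8000 to 9000. Their median Malat1 shares were 2.77% and 3.99% below the limit and 4.43% and 3.20% above it.

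The name platelet was checked against nuclear RNA, and the data went against it for most of these barcodes. Malat1, a long noncoding RNA of nuclear speckles, made up 10.8% of their UMIs in WT and 9.04% in KO, against 1.12% and 1.15% in the deep barcodes and 2.35% and 2.13% in the other low-RNA barcodes. The log2 ratio of Malat1 to the deep barcodes was 3.26 in WT (3.24 to 3.27) and 2.98 in KO (2.96 to 2.99). Neat1, the scaffold RNA of nuclear paraspeckles, had 1699 CPM in WT and 1393 in KO, with log2 ratios to the deep barcodes of 3.22 and 2.79. The excess was one of molecules as well as of share: a low-RNA barcode carried on average 437 Malat1 UMIs in WT and 412 in KO, against 311 and 297 in a deep barcode, which held several times as many UMIs in all. At least 1 Malat1 UMI was found in 119 of 119 WT and 130 of 131 KO barcodes. It was also found in 300 of 301 WT and 305 of 307 KO other low-RNA barcodes, so detection alone does not set them apart. Because of the Malat1 share, the barcodes described are called low-RNA barcodes with rule genes here, and not platelets.

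Malat1 did not mark all of these barcodes alike. Its share per barcode ran from 0.0412% to 40.3% in WT, with a median of 11.2%, and from 0 to 36.3% in KO, with a median of 7.57%. At or above 6% lay 87 of 119 barcodes in WT (73.1%) and 76 of 131 in KO (58.0%), a KO minus WT difference of -15.1 percentage points (-26.2 to -3.28). The difference depended on where the line was drawn, after the data were seen: at 10% the shares were 56.3% and 38.9%, but at 2% they were 88.2% and 89.3%. Only 3.83% of the deep barcodes in WT and 4.49% in KO reached 6%, and 11.3% and 10.7% of the other low-RNA barcodes. RNA of cytoplasmic origin was low beside it. The median share of ribosomal protein genes per barcode was 3.0% in WT and 2.88% in KO, against 22.3% and 19.2% in the deep barcodes. Mitochondrial transcripts had medians of 0.755% and 0.639%, against 2.65% and 2.93%, but summed over barcodes their shares were 2.32% and 2.04%, against 2.67% and 2.94%. The gap in mitochondrial RNA thus depended on the summary, while summed ribosomal shares of 6.04% and 5.02%, against 21.4% and 18.8%, were low as well.

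**Figure D1:**
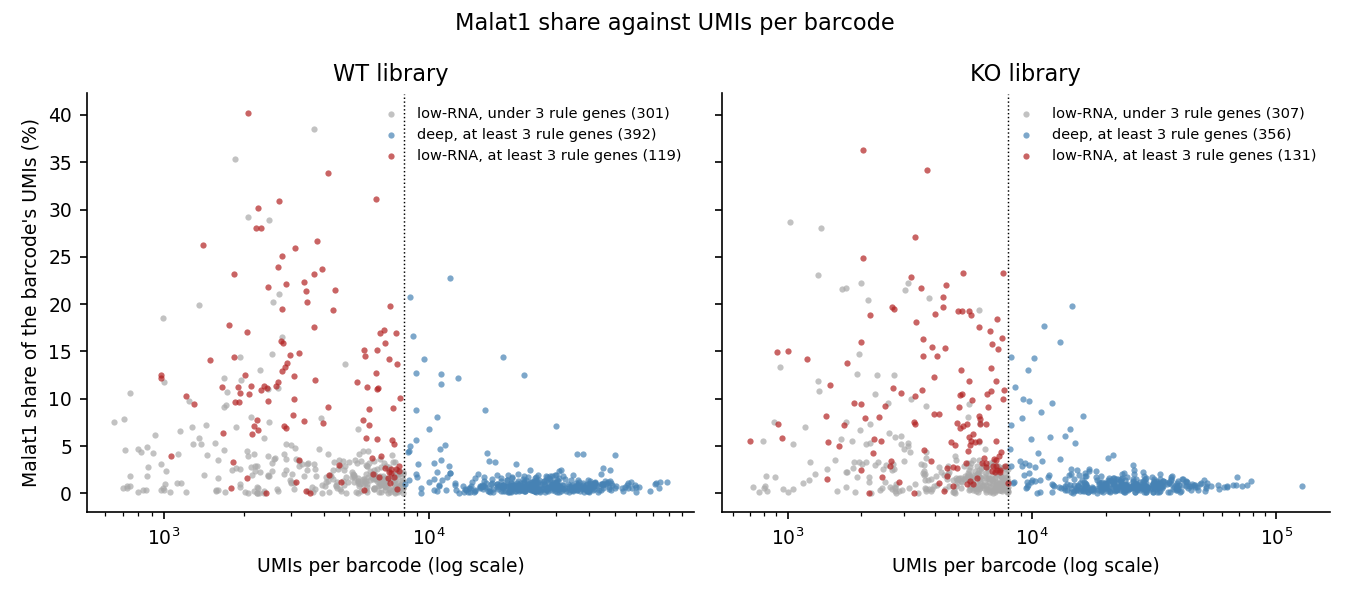
Malat1 share of each barcode's UMIs (vertical axis, %) against its UMIs (horizontal axis, log scale) in the WT and KO libraries; each point is 1 barcode and the dotted line is the limit of 8000 UMIs. Red points, the low-RNA barcodes with rule genes, spread up to 40.3% in WT and 36.3% in KO, while nearly all blue deep points lie under 6%; 15 WT and 16 KO deep barcodes are at or above 6%.

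The 7 rule genes differed in how their levels compared with those of the deep barcodes, although both sets were chosen on them. Tubb1, the beta-1 tubulin of the platelet marginal band, had 561 CPM in WT and 509 in KO, against 40.9 and 33.9 in the deep barcodes. Gp6, the collagen receptor glycoprotein VI, stood at 447 and 404 CPM against 52.0 and 78.2. Cd226, an adhesion receptor of platelets and lymphocytes, stood at 2086 and 1557 CPM against 225 and 239. These 3 genes had the largest ratios among the rule genes. Itgb3, the beta-3 chain of the fibrinogen receptor, had 2014 and 2096 CPM against 501 and 671. Alox12, the platelet 12-lipoxygenase, had 887 and 838 CPM against 353 and 362. Gp9, the glycoprotein IX subunit of the von Willebrand factor receptor, went the other way, with 193 and 218 CPM against 397 and 434. So did Pf4, platelet factor 4, a chemokine of alpha granules, with 3975 and 5158 CPM against 18238 and 20410. In molecules per barcode, a low-RNA barcode held on average 2.28 Tubb1 UMIs in WT and 2.32 in KO against 1.13 and 0.879 in a deep one, but 16.1 and 23.5 Pf4 UMIs against 504 and 529. Itgb3 was higher as a share but not in molecules, with 8.17 UMIs per barcode in WT against 13.8.

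**Figure D2:**
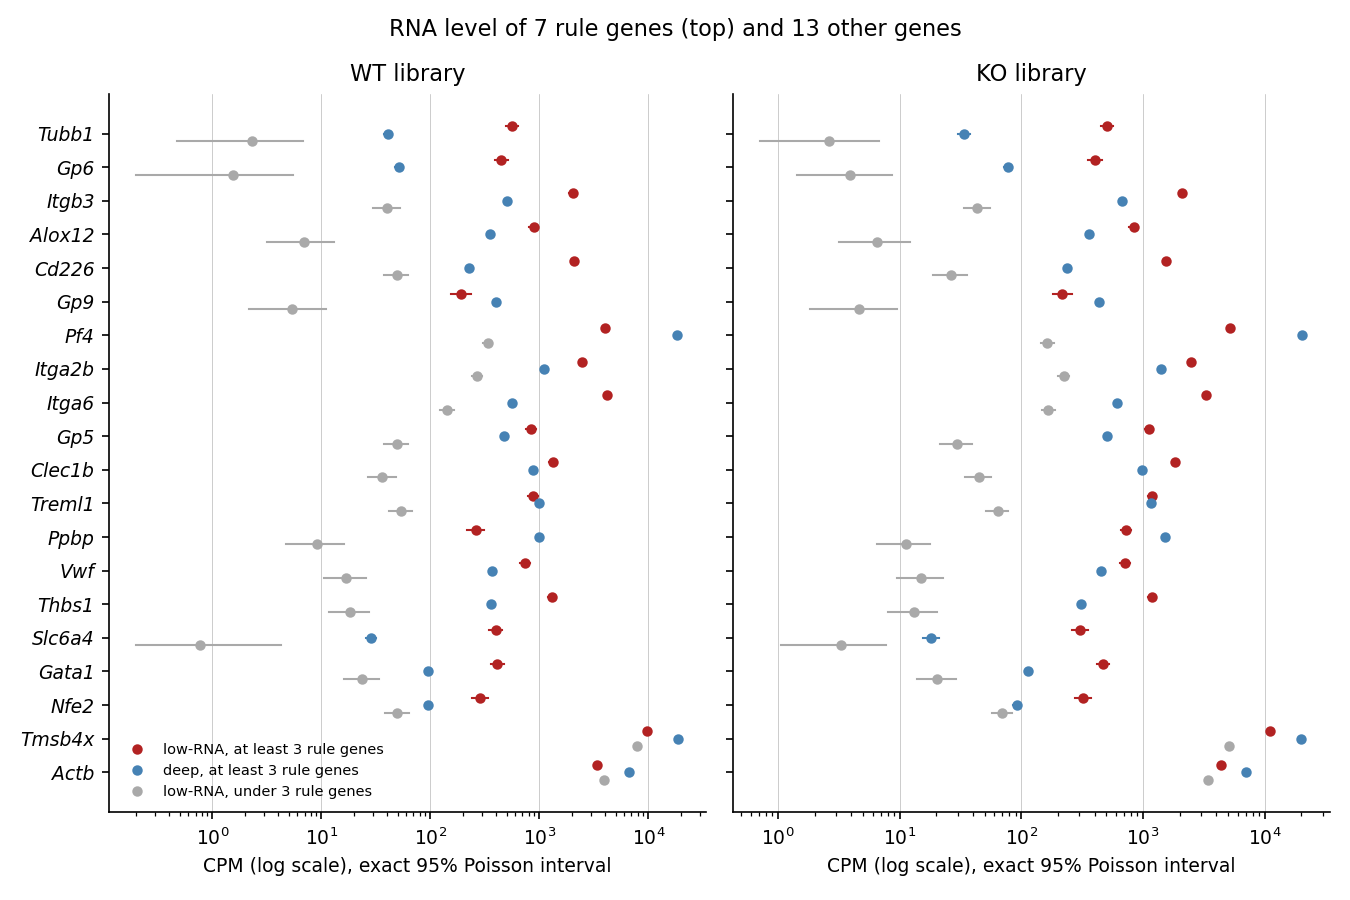
RNA level in CPM (horizontal axis, log scale) of the 7 rule genes and 13 other genes in the WT and KO libraries; points are summed over the low-RNA barcodes with rule genes (red), the deep barcodes with rule genes (blue) and the other low-RNA barcodes (grey), with exact 95% Poisson intervals. Tubb1, Gp6, Itga6 and Slc6a4 lie to the right of the deep barcodes in both libraries, and Gp9, Pf4, Ppbp, Tmsb4x and Actb to the left.

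Detection at equal depth gave the same split for Tubb1, Gp6 and Pf4. It is no independent check, since both sets of barcodes were chosen on UMIs of these genes. Thinned to 2000 UMIs, Tubb1 was found in 44.6% of the low-RNA barcodes in WT and 38.6% in KO, against 6.38% and 8.43% of the deep barcodes. Gp6 was found in 49.5% and 44.7%, against 7.91% and 12.4%. Pf4 was found in 74.3% and 82.5%, against 95.7% and 95.5%. In barcodes that should lack these genes, Tubb1 was found in 0 of 1136 thinned WT neutrophil-marker barcodes, which allows a share of up to 0.264%, and Gp6 and Pf4 in 0.176% and 8.10% of them. Not thinned, 52.9% of the WT low-RNA barcodes held a Tubb1 UMI at their median of 3367 UMIs, against 1.14% of the neutrophil-marker barcodes at a median of 32781, and Pf4 was found in 71.7% of the latter. The low-RNA barcodes were kept for holding such UMIs, so their shares against neutrophil-marker barcodes are set by the rule. The deep barcodes were chosen on the same genes, though not at the same depth. The part of this choice in the shares against the deep barcodes was not tested. Whether the Pf4 UMIs of neutrophil-marker barcodes are free RNA was not tested. The thinning left out 18 WT and 17 KO low-RNA barcodes that were too shallow.

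The 250 bases before the start of 4 rule genes are shown because these genes part ways in the data, Tubb1 and Gp6 being higher and Gp9 and Pf4 lower than in the deep barcodes. They come from RefSeq on GRCm38.p6 and run 5′ to 3′ on the strand of the gene, and capitals mark GATAA or its reverse TTATC, the core that GATA factors bind. Tubb1 lies at chr2:174450345-174450594 on the plus strand, Gp6 at chr7:4397745-4397994 on the minus strand, Gp9 at chr6:87777820-87778069 on the plus strand and Pf4 at chr5:90772185-90772434 on the plus strand.
Tubb1: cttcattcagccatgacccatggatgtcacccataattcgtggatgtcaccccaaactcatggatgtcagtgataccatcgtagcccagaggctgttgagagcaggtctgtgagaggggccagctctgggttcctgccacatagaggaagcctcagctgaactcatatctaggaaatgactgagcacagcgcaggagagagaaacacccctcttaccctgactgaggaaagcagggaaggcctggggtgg
Gp6: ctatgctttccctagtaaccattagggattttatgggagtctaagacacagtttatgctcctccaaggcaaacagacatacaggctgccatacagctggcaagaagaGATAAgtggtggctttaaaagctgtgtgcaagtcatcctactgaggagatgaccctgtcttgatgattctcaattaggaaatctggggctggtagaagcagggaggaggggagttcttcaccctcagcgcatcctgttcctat
Gp9: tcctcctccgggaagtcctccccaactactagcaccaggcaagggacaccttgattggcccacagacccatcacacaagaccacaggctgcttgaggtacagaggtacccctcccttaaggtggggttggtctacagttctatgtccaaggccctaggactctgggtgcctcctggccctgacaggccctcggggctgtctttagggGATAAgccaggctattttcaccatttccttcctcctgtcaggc
Pf4: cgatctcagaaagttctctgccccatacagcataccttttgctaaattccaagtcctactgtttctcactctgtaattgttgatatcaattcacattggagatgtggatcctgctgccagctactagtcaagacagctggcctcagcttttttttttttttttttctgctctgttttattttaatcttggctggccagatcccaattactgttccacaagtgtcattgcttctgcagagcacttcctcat
Gp6 and Gp9 each held 1 such match in this stretch, and Tubb1 and Pf4 held 0. In these 250 bases of these 4 genes, 1 of the higher genes and 1 of the lower genes thus held a match. In RefSeq windows of 300 bases, 250 before and 50 after the start and read on both strands, GATAA was present in 3 of the 5 rule genes that matched (60%) and in 25.4% of all 32851 promoters. It was present in 31.8% of 22 promoters of platelet receptor genes and in 21.7% of 23 promoters of alpha granule genes. GGAA, the core bound by ETS factors, was present in 100% of each of these sets and in 96.0% of all promoters, and so marks none of them. A match is a description of letters and not of binding.

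Across all genes with at least 20 UMIs in a comparison, 28.5% of 11599 in WT and 29.3% of 11388 in KO were at least 1.5-fold higher in the low-RNA than in the deep barcodes, and 35.4% and 32.3% were at least 1.5-fold lower. Scaling by edgeR TMM would lower each of these log2 ratios by 0.27 in both libraries, and median-of-ratios scaling by 0.18 in WT and 0.23 in KO. Gene lists are read against those shares. Platelet receptors, the proteins through which platelets bind vessel wall and agonists, had 14 higher and 4 lower of 25 in WT and 10 higher and 4 lower of 24 in KO, with median log2 ratios of 0.60 and 0.46. The median over all genes was -0.097 and -0.026. Itga6, the laminin receptor chain alpha-6, had 4168 CPM in WT and 3301 in KO against 561 and 615 in the deep barcodes, log2 ratios of 2.89 (2.82 to 2.97) and 2.43 (2.35 to 2.50). Ptgir, the prostacyclin receptor that restrains platelets, had 99.4 and 93.8 CPM against 11.5 and 12.1. Pecam1, an adhesion molecule, had 445 and 468 CPM against 76.4 and 82.3. Itga2b, the alpha chain that pairs with Itgb3, had 2480 and 2482 CPM against 1114 and 1410.

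The receptor for von Willebrand factor, a complex of 4 gene products whose levels were looked up after the list had been seen, was uneven. Gp5 had log2 ratios of 0.81 in WT and 1.16 in KO, and Gp1ba 0.76 and 0.68. Gp1bb had -1.42 (-2.11 to -0.80) and -1.44 (-1.98 to -0.94), and Gp9 -1.04 and -0.99. The subunit mRNAs therefore stood in other proportions than in the deep barcodes. Tbxa2r, the thromboxane receptor, was lower too, with 18.6 and 28.5 CPM against 108 and 105. Clec1b, the podoplanin receptor CLEC-2, had 1328 and 1837 CPM against 880 and 982, and Treml1, a receptor stored in alpha granules, had ratios of -0.19 and 0.02. Against the other low-RNA barcodes, where 19.5% of genes in WT and 19.7% in KO were at least 1.5-fold higher and 39.4% and 36.4% lower, receptors had 21 higher and 2 lower of 23 in WT and 21 higher and 3 lower of 24 in KO, with medians of 3.35 and 3.47. In both libraries together 14.2% of 8663 genes were higher and 27.4% lower in that comparison. The other low-RNA barcodes were chosen for having fewer than 3 rule genes, so the higher receptor level is set in part by the rule.

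Alpha granule cargo, the adhesive and clotting proteins that platelets release, had 11 higher and 7 lower of 21 in WT and 9 higher and 5 lower of 19 in KO against the deep barcodes, with medians of 0.59 and 0.57. The WT median turned to -0.12 in the 32 barcodes below 6% Malat1. Thbs1, thrombospondin-1, had 1301 CPM in WT and 1183 in KO against 361 and 307, log2 ratios of 1.85 (1.73 to 1.97) and 1.94 (1.82 to 2.06). Vwf, von Willebrand factor, had 744 and 709 CPM against 367 and 449. Pdgfa, a chain of platelet-derived growth factor, had 91.1 and 92.2 CPM against 7.75 and 7.15, from 44 and 55 UMIs. Among the lower ones, Ppbp, a platelet chemokine, had 261 and 731 CPM against 998 and 1516. F5, clotting factor V, had 43.5 and 65.4 CPM against 133 and 207, and Selp, P-selectin, had 108 and 112 against 243 and 289. Slc6a4, the transporter that takes serotonin into platelets, was among the 15 genes highest in both libraries, with 398 and 305 CPM against 28.5 and 18.1.

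Genes for making and releasing granules had 7 higher and 6 lower of 25 in WT and 8 higher and 4 lower of 25 in KO, with medians of 0.14 and 0.23. The share of higher genes was near that of all genes. Nbeal2, which is needed for alpha granules, had log2 ratios of 3.0 (2.67 to 3.33) in WT and 2.52 (2.18 to 2.85) in KO. Lyst, a regulator of lysosome-related organelles, had 3.17 and 2.41. Vamp8, the vesicle fusion protein of granule release, had -1.15 and -0.73, and Rab32, a GTPase of granule biogenesis, -1.57 and -2.39.

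The proplatelet cytoskeleton list holds genes of the actin and tubulin machinery that shapes platelets. It had 8 higher and 10 lower of 32 in WT and 7 higher and 9 lower of 31 in KO, with medians of 0.06 and -0.08. These shares were near or below those of all genes, so the list as a whole did not stand out. The genes named next are single members of it. Adhesion site genes were among the higher ones: Vcl, vinculin, had log2 ratios of 1.59 and 1.37, Parvb, beta-parvin, 2.0 and 1.47, and Lims1, the adaptor PINCH-1, 1.30 and 1.02. Abundant actin genes were among the lower ones. Actb, beta-actin, had 3345 CPM in WT and 4337 in KO against 6668 and 7071. Tmsb4x, the actin monomer binder thymosin beta-4, had 9759 and 11112 CPM against 18824 and 19934. Cfl1, cofilin, which severs actin filaments, had log2 ratios of -1.55 and -1.50. The loci of Actb, Tmsb4x and Cfl1 span 3640, 2223 and 4747 bases, and those of Vcl, Parvb and Lims1 between 83646 and 104280, a pattern given for all genes below.

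Platelet signalling genes had 15 higher and 4 lower of 31 in WT and 16 higher and 6 lower of 31 in KO, with medians of 0.55 and 0.61. Prkca, protein kinase C alpha, had 4124 CPM in WT and 4479 in KO against 1590 and 2104. Vav3, a guanine nucleotide exchange factor, had 1382 and 1336 CPM against 298 and 435, and Lyn, a Src family kinase, 1158 and 990 against 285 and 322. Gnai2, a G protein alpha subunit, had 203 and 218 CPM against 449 and 437. Eicosanoid enzymes had 1 higher and 2 lower of 9 in WT and 1 higher and 3 lower of 9 in KO, with medians of -0.17 and -0.36. The higher one was Tbxas1, thromboxane synthase, with 1986 and 1835 CPM against 744 and 788.

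Megakaryocyte transcription factors had 9 higher and 2 lower of 21 in WT and 9 higher and 3 lower of 21 in KO, with medians of 0.38 and 0.37. Gata1, which drives the megakaryocyte and erythroid programs, had 412 CPM in WT and 471 in KO against 95.6 and 114, log2 ratios of 2.11 (1.88 to 2.33) and 2.04 (1.85 to 2.23). Tal1, its partner, had 740 and 806 CPM against 181 and 212. Nfe2, the factor that controls proplatelet formation and Tubb1, had 286 and 322 CPM against 94.2 and 91.4. Gata2, which precedes Gata1 in development, was higher as well, with ratios of 1.49 and 1.67. Fli1, an ETS factor of platelet genes, had ratios of 0.40 and 0.04, and Runx1, whose native and vector transcripts were not separated, -0.33 and -0.19.

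Genes of division were low against the deep barcodes. Of 20 tested genes of G2/M and mitosis, 20 were lower in WT and 20 in KO, and their summed level was 184 CPM against 1359 in WT and 218 against 1453 in KO. With genes at 0 set to the floor of 3 UMIs the medians were -2.93 and -2.75. Of 20 genes of G1/S and replication, 19 were lower in WT and 18 in KO, with medians of -1.93 and -1.71. Part of this gap was shared by the other low-RNA barcodes, whose G2/M genes summed to 401 (WT) and 290 (KO) CPM. Against them the summed G2/M ratio was -1.12 (-1.46 to -0.80) for WT and -0.41 (-0.71 to -0.13) for KO. For G1/S the summed ratios were -0.84 and -0.58 against the other low-RNA barcodes, and -1.81 and -1.38 against the deep ones. Mki67, the proliferation antigen, had 4 UMIs in the WT and 19 in the KO low-RNA barcodes, against 2194 and 2129 in the deep ones. Birc5, survivin, had 5 and 4 against 1088 and 884. Early progenitor genes had 2 higher and 6 lower of 13 in WT and 2 higher and 9 lower of 13 in KO. Cd34, a surface protein of progenitors, had 58.0 and 60.3 CPM against 215 and 248, while Slamf1, the stem and progenitor antigen CD150 that megakaryocytes also carry, had 350 and 395 against 93.6 and 104.

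Genes of apoptosis and platelet lifespan had 5 higher and 5 lower of 17 in WT and 7 higher and 4 lower of 17 in KO. Bcl2l1, which codes for the survival protein BCL-XL that sets platelet lifespan, had 586 CPM in WT and 479 in KO against 122 and 136. Bbc3, the death-promoting protein PUMA, had 338 and 340 CPM against 33.6 and 26.0, log2 ratios of 3.33 (3.05 to 3.60) and 3.71 (3.43 to 3.99). These 2 genes, of opposite directions of cell death, were thus both among the higher ones. For the list as a whole, the share of higher genes in WT was near the 28.5% of all genes. In KO it was above the 29.3% of all genes. The list medians were 0.01 and 0.16. Of 15 autophagy and mitophagy genes, 5 were higher and 0 lower in WT and 6 higher and 0 lower in KO. Ulk1, the kinase that starts autophagy, had ratios of 2.49 and 1.63 from 20 and 19 UMIs. Interferon response genes had 6 higher and 14 lower of 29 in WT and 5 higher and 17 lower of 31 in KO, and Ifitm3, a membrane protein that hinders virus entry, had 102 and 78.8 CPM against 424 and 474.

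**Figure D3:**
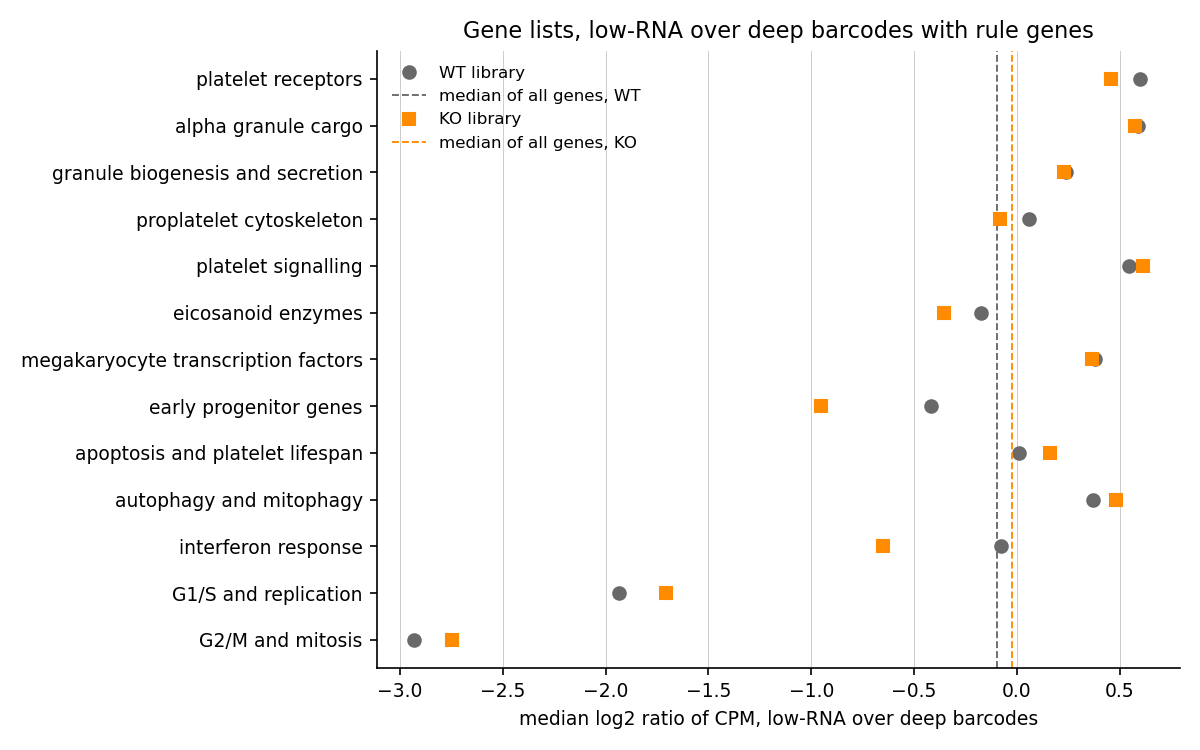
Median log2 ratio of CPM, low-RNA over deep barcodes with rule genes (horizontal axis), for 13 gene lists in the WT (circles) and KO (squares) libraries; genes at 0 are set to the floor of 3 UMIs and dashed lines are the medians over all genes. Receptors, alpha granule cargo, signalling and transcription factors lie right of the dashed lines in both libraries, and the division lists lie near -1.71 to -2.93. The lists of granule biogenesis, autophagy and apoptosis lie right of the dashed lines in both libraries as well.

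Over all genes, 20.1% of 11163 were at least 1.5-fold higher in both libraries and 23.5% lower in both. The highest of them included Phlda3, a target of p53, with log2 ratios of 4.24 (3.62 to 4.86) in WT and 4.01 (3.40 to 4.62) in KO. Crtam, an adhesion receptor of lymphocytes, had 4.87 and 4.35, and Itgb5, the integrin chain beta-5, 3.94 and 4.47. Trpc1, a cation channel, had 3.98 and 4.13. Ccl6, a chemokine, was in this group with 3.69 and 3.99, but stood higher in the other low-RNA barcodes, at 296 and 207 CPM, than in those with rule genes, at 78.7 and 57.0. Among the lowest were the spindle genes Kif11, with 1 UMI in WT and 2 in KO against 526 and 498, and Tpx2, with 3 in each against 611 and 646. Sdf2l1, an endoplasmic reticulum chaperone partner, was low by -3.18 and -3.27, from 15 and 16 UMIs.

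The ratio to the deep barcodes varied with the genomic span of a gene, from the first to the last base of its annotated locus, introns included. For genes under 10 kb the median log2 ratio was -0.64 in WT and -0.49 in KO. From 10 to 30 kb it was -0.28 and -0.15, from 30 to 100 kb 0.23 and 0.22, and at 100 kb and over 0.49 and 0.42. The share of genes at least 1.5-fold higher went from 19.97% in the shortest class to 46.3% in the longest in WT, and from 21.5% to 43.1% in KO. Genes share the same libraries and barcodes, so this is a description. Span, the Malat1 share and the ribosomal share moved together with the gene lists above, and their part in those ratios was not tested. The quartiles overlap between classes.

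**Figure D4:**
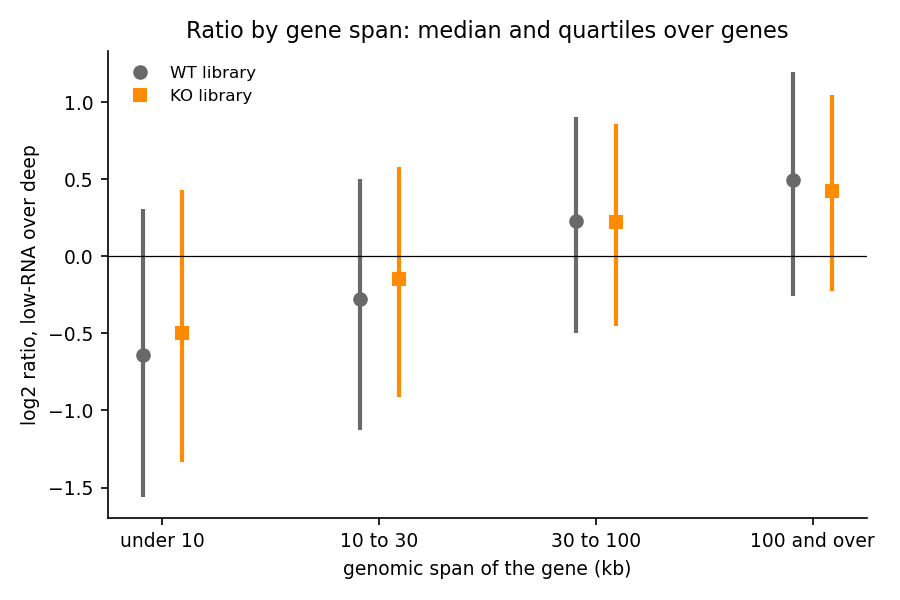
Log2 ratio of CPM, low-RNA over deep barcodes (vertical axis), by genomic span of the gene in kb (horizontal axis) in WT (circles) and KO (squares); symbols are medians over genes and lines run from the lower to the upper quartile. Medians go from -0.64 and -0.49 under 10 kb to 0.49 and 0.42 at 100 kb and over.

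Split at 6% Malat1, the low-RNA barcodes fell into unlike sets. The 87 WT and 76 KO barcodes at or above 6% had median mitochondrial shares of 0.566% and 0.468% and ribosomal protein shares of 2.39% and 2.31%. The 32 and 55 below it had 3.67% and 1.68% mitochondrial and 7.79% and 5.44% ribosomal UMIs. Tubb1 had 815 CPM in WT and 812 in KO in the Malat1-rich set and at 109 and 141 in the rest. The same held on the deep side of the limit: the 15 WT and 16 KO deep barcodes at or above 6% had 805 and 627 CPM of Tubb1, and the other deep barcodes 26.5 and 22.2. Their median depths were 11108 and 10567 UMIs, and their median ribosomal shares 2.87% and 1.31%. Summed platelet receptors stood at 17444 and 17682 CPM in the Malat1-rich low-RNA barcodes and at 9746 and 13473 in the Malat1-poor ones. On the deep side they stood at 20333 and 25316 in the Malat1-rich barcodes and 7832 and 9091 in the rest. The gap between the subsets was thus smaller for receptors than for Tubb1, and smallest for receptors in the KO low-RNA barcodes. Not all genes went this way. Gp6, Itgb3, Alox12 and Cd226 went with Tubb1. Pf4 had 2961 CPM in WT and 3485 in KO in the Malat1-rich low-RNA barcodes, against 5780 and 7193 in the Malat1-poor ones. Gp9 had 162 and 189 against 248 and 253. Summed transcription factors stood at 9280 and 10017 against 11824 and 13060. Alpha granule cargo and signalling genes were higher, and cytoskeleton genes lower. Tubb1, Pf4 and Gp9 are rule genes, however, and the Malat1-rich low-RNA barcodes were shallower. Their median UMIs were 2889 in WT and 4240.5 in KO, against 6252.5 and 5428 in the Malat1-poor ones. The part of depth and of the choice in these gaps was not tested. The 34 WT and 33 KO other low-RNA barcodes at or above 6% Malat1 had 2270 and 2324 CPM of receptors. They were chosen for having fewer than 3 rule genes, so this lower level is set in part by the rule.

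Clustered without the rule genes, the low-RNA barcodes formed 4 clusters, none of which is given a cell type name. Cluster 0 held 43 WT and 33 KO barcodes, with a median Malat1 share of 14.0%, 6 of the 7 rule genes and 1209 CPM of Tubb1. It was led by Trpc1, Ypel2, Arhgap28 and Lpin2. Cluster 1 held 33 and 38 barcodes, with 9.50% Malat1 and 254 CPM of Tubb1, and was led by Snhg15, Clp1, Bnip3 and Ccng1. Cluster 2 held 21 and 31 barcodes, with 11.3% Malat1 and 698 CPM of Tubb1, and its leading genes included Shisa9, Cyp4x1, Dhx57 and Mmrn1, which codes for the alpha granule protein multimerin. Cluster 3 held 22 and 29 barcodes and stood apart. It had a median of 6155 UMIs, 2.36% Malat1, 4.31% mitochondrial and 8.89% ribosomal UMIs, 3 rule genes and 30.7 CPM of Tubb1. It was led by Zeb1, Ptprc, the leukocyte antigen CD45, Mycn and Rftn1. Gp6, Itgb3, Alox12 and Cd226 were lowest in cluster 3, as Tubb1 was, but Pf4, Gp9 and Itga2b were not. Pf4 had 5637 CPM in cluster 3, against 4086, 5694 and 2043 in clusters 0, 1 and 2. Itga2b had 1959 CPM there, against 3638, 1331 and 3371. Of the 250 barcodes, 4 had at least 1% of their UMIs on markers of another lineage, 3 in WT and 1 in KO, and these 4 were in cluster 3. The same share was passed by 103 of 301 WT and 89 of 307 KO other low-RNA barcodes.

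Markers of other lineages were lower or higher than in the deep barcodes depending on the list. Markers of stem cells and multipotent progenitors (HSC/MPP) were the highest of the 14 marker lists, at 1187 CPM in WT and 1228 in KO against 1343 and 1427, with 3 and 2 of their 8 genes at 0. Of 8 neutrophil progenitor markers 8 were found in WT and 7 in KO, summing to 452 and 318 CPM, against 935 and 641 in the deep barcodes. Of 8 maturing neutrophil markers 4 were at 0 in each library, namely Ngp, Ltf, Retnlg and Mmp8. Basophil or mast cell markers summed to more than in the deep barcodes, at 352 CPM in WT and 92.2 in KO against 11.6 and 46.4. Most of these UMIs lay in 1 barcode of each library, as given below, and the median share per barcode was 0. Macrophage markers summed to 37.3 and 58.7 CPM against 7.20 and 10.1, with 4 and 2 of 8 at 0. The part of these markers in the results was not tested. A doublet score placed 1 WT and 4 KO barcodes among the top scores of their library.

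The question of the design is how loss of Phf6 changes cells that carry the RUNX1 mutant. Phf6, a chromatin-bound zinc finger protein, had 19 UMIs in 11 WT barcodes and 15 UMIs in 13 KO barcodes, 39.4 and 25.1 CPM, a log2 ratio of KO over WT of -0.65 (-1.73 to 0.41). In the deep barcodes the ratio was -1.28 (-1.57 to -1.01). At this depth the label of the KO library could thus not be read from the low-RNA barcodes alone. Runx1 had 1230 CPM in WT and 1597 in KO, a ratio of 0.38 (0.23 to 0.53), against 0.23 in the deep barcodes, and -0.04 without cluster 3. Across genes, 16.8% of 6663 tested were at least 1.5-fold higher in KO and 9.17% lower, with a median of 0.09. The interval lay wholly on one side of 0 for 430 of the higher and 252 of the lower genes. A tested gene had a median of 58 UMIs over both libraries and a median interval of 0.81 to each side, so most single ratios past 1.5-fold were within counting error. In the deep barcodes the shares were 5.69% and 5.75% of 12428.

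None of the 7 rule genes was 1.5-fold apart between KO and WT. Cd226 was lower at -0.42 (-0.55 to -0.29) and Pf4 higher at 0.38 (0.29 to 0.46), while Tubb1 stood at -0.14 (-0.38 to 0.10), Gp6 at -0.15 (-0.42 to 0.12) and Itgb3 at 0.06 (-0.06 to 0.18). The barcodes were chosen on these genes, and those of WT were shallower, with a median of 3367 UMIs against 4760 in KO. The part of depth and of the choice in these ratios was not tested. Platelet receptors had 2 higher and 1 lower of 22, with a median of 0.25. Cytoskeleton genes had 3 higher and 0 lower of 31, transcription factors 4 higher and 0 lower of 20, and signalling genes 3 higher and 3 lower of 29. These shares were near or below those of all genes. Alpha granule cargo had 7 higher and 1 lower of 19, with a median of 0.02, and in the deep barcodes 5 higher and 0 lower of 21.

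Ppbp, the precursor of the platelet basic protein chemokines, carried the clearest difference among the cargo genes. It had 126 UMIs in 36 of 119 WT barcodes and 436 UMIs in 49 of 131 KO barcodes, 261 and 731 CPM. The log2 ratio was 1.49 (1.20 to 1.78), and 1.38 without the top barcode of each library, which held 17 and 86 UMIs. It was 1.42 in the Malat1-rich and 1.80 in the Malat1-poor barcodes, and 0.60 in the deep ones. F13a1, the A chain of clotting factor XIII, was the lower one, with 232 and 102 CPM and a ratio of -1.18 (-1.66 to -0.72), but -0.20 in the Malat1-poor barcodes. Rgs10, a brake on G protein signalling in platelets, had 653 and 1138 CPM and a ratio of 0.80 (0.61 to 1.00), with 0.77 and 0.90 in the Malat1-rich and Malat1-poor barcodes. Itga6 and Cd226 reversed between these subsets: Itga6 had ratios of -0.39 and 1.16 and Cd226 -0.43 and 0.64. Barcodes at or above 6% Malat1 were a smaller share in KO than in WT, and their part in the pooled ratios was measured only by this split, chosen after seeing the data.

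The genes with the largest differences between KO and WT were of 2 kinds, those spread over barcodes and those held by a few. Dock1, an exchange factor for Rac, was spread: 71 UMIs in 25 WT barcodes against 9 UMIs in 7 KO barcodes, a ratio of -3.29 (-4.47 to -2.28), and -2.03 in the deep barcodes. It was -3.10 without cluster 3, -2.28 in the Malat1-rich and -4.92 in the Malat1-poor barcodes. Cebpb, a myeloid transcription factor, had 41 UMIs in 19 WT and 12 in 10 KO barcodes, a ratio of -2.08 (-3.14 to -1.12) and -1.23 in the deep ones. On the higher side, Gsn, the actin-severing protein gelsolin, had 24 UMIs in 18 WT and 79 in 40 KO barcodes, a ratio of 1.41 (0.74 to 2.14). Rcl1, a protein of ribosomal RNA processing, had 12 UMIs in 8 WT and 47 in 37 KO barcodes, a ratio of 1.66 (0.73 to 2.71). In the deep barcodes the ratio of Gsn was only 0.29 (0.16 to 0.42). That of Rcl1 had the opposite sign there, at -0.27 (-0.52 to -0.02).

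The other kind rested on single barcodes. Ccl4, a chemokine, had 55 UMIs in 1 WT barcode and 1 UMI in KO. Map2k6, a kinase of the p38 pathway, had 38 of its 53 KO UMIs in 1 barcode. Of 105 Ifitm1 UMIs in WT 85 lay in 1 barcode, and the ratio of -4.21 became -2.32 without the top barcode of each library. Hdc, the histamine-forming enzyme of basophils and mast cells, had 78 of 113 WT UMIs in 1 barcode. The WT UMIs of Ccl4 and Ifitm1 lay in cluster 3, as did 111 of those of Hdc and 46 of 47 of those of the chemokine gene Ccl9. Without cluster 3, Dach1, a transcription cofactor, went from 1.40 to -1.21, with 34 WT and 18 KO UMIs left, and Hdac9, a histone deacetylase, from 1.58 to -0.81, with 10 and 7. For both genes the direction thus rested on cluster 3.

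**Figure D5:**
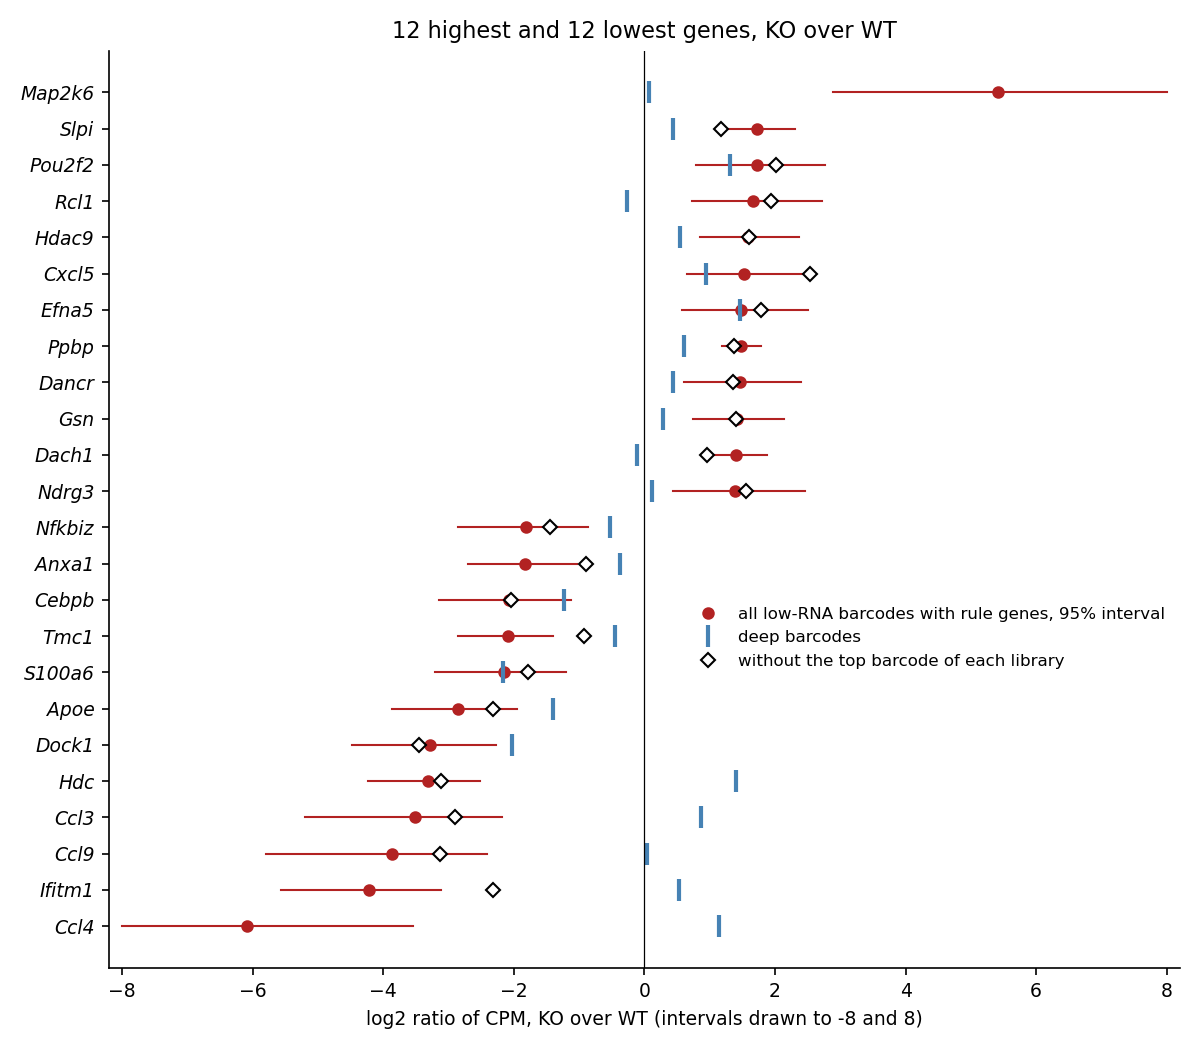
Log2 ratio of CPM, KO over WT (horizontal axis), for the 12 highest and 12 lowest genes in the low-RNA barcodes with rule genes; red circles are all such barcodes with 95% counting intervals, open diamonds leave out the top barcode of each library, and blue bars are the deep barcodes. Dock1, Cebpb and Gsn keep ratios of -3.46, -2.04 and 1.41 without their top barcodes, while Ifitm1 goes from -4.21 to -2.32.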

How the data were processed

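GFP+Lin- marrow cells of 1 WT and 1 Phf6 KO library were measured by droplet single-cell RNA sequencing. The deposited values are UMI counts per gene and barcode, filtered to cell barcodes by the authors. Per the submitters' processing notes they were made with Cell Ranger 3.0.1 on GRCm38, whereas the header of the deposited matrices names version 6.0.2. The libraries hold 5287 and 5260 barcodes, 131667969 and 120408100 UMIs. Barcodes under 500 genes (51 WT, 32 KO) or over 10% mitochondrial UMIs (534 and 298) were left out. The libraries share 10 barcode sequences, of which 0 belong to the barcodes described. No doublets were removed; a doublet score (top 0.8% per 1000 barcodes) was recorded.

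Counts were summed per library and set of barcodes. Genes with at least 20 UMIs in a comparison were used, ratios carry exact conditional binomial intervals, levels exact Poisson and shares Clopper-Pearson or Newcombe intervals at 95%, and a group at 0 is read at a floor of 3 UMIs. UMIs are molecules of 1 library, so intervals cover counting error only. The members and the gene lists (18 by function, 14 of lineage markers) were chosen with earlier results of these data known. Genes named are the rule genes, Phf6, Runx1, up to 4 of each list with the largest ratio and 3 with the highest CPM, the 12 highest and 12 lowest for KO over WT (at least 50 UMIs), the 15 highest and lowest against the deep barcodes, and the top 8 of each cluster; a few others were chosen after their values were seen, among them Rgs10, Cd226 by subset and the von Willebrand factor receptor genes. Clusters used 1000 variable genes, 15 components, 15 neighbours and Leiden resolution 0.6 (scanpy 1.11.5). Alternatives were other UMI ceilings, rule-gene minimums, UMI minimums and scalings (edgeR 4.0.16 TMM, median of ratios), and, chosen after seeing the data, splits at 6% Malat1, leaving out Malat1, cluster 3 or the top barcode. Ratio scripts were tested on simulated data. Spans came from GENCODE M21 (32158 of 32285 gene IDs matched) and promoters from RefSeq.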

Additional observations from a re-analysis of the deposited data

Results flagged for a closer look

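For 5 gene lists the summed KO over WT log2 ratio had opposite signs in the low-RNA and the deep barcodes, each with an interval on its own side of 0. The difference between the 2 sets was not tested, and with 1 library per genotype it could not be.

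Interferon response genes summed to -0.22 (-0.40 to -0.05) in the low-RNA barcodes and 0.18 (0.15 to 0.20) in the deep ones. A single WT barcode held 93 of their 534 WT UMIs, and without the top barcode of each library the value was -0.04. Nuclear retained RNAs, of which Malat1 is the main one, summed to -0.22 (-0.24 to -0.20) against 0.14 (0.13 to 0.15), and to -0.21 without the top barcodes. The share of low-RNA barcodes at or above 6% Malat1 was lower in KO than in WT, but not the share at or above 2%, as given above.

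Markers of basophils or mast cells summed to -1.93 (-2.40 to -1.49) against 1.99 (1.70 to 2.29), from 170 UMIs in 6 WT barcodes, 106 of them in 1, and 55 UMIs in 8 KO barcodes, 46 of them in 1. The KO deep barcodes held 428 UMIs of these markers, and 1 of them had 3.28% of its UMIs on the list. The part of that barcode in the value of 1.99 was not tested. B lineage markers summed to -5.35 (-8.43 to -3.44) against 0.25 (0.02 to 0.47), with 59 of 66 WT UMIs in 1 barcode and 2 UMIs in KO. T or NK markers summed to -2.53 (-4.97 to -0.69) against 1.17 (0.85 to 1.5), from 14 UMIs in 4 WT barcodes and 3 UMIs in 2 KO barcodes.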

How the results depend on the processing

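No paired analysis was possible because each genotype has 1 library, and no replicate could be left out for the same reason. With a ceiling of 5000 UMIs the rule left 78 WT and 70 KO barcodes, and thinning to 2000 UMIs before counting rule genes left 85 in KO. The share of genes at least 1.5-fold apart between KO and WT depended on the UMI minimum: with at least 50 UMIs it was 10.2% higher and 4.75% lower (389 and 181 genes), and with no minimum 17.1% were lower (2613 genes higher and 1963 lower). In barcodes below 6% Malat1, a split chosen after seeing the data, 14.3% were lower. In the same subset, medians against the deep barcodes changed sign for alpha granule cargo in WT (-0.12, from 0.59) and for interferon genes in KO (0.034, from -0.77). The cause was not tested. Of the values that answer a comparison, 102 of 109 under an alternative moved little. Scaling by edgeR TMM shifted the log2 ratios to the deep barcodes by -0.27 in both libraries, and median of ratios by -0.18 and -0.23; KO over WT shifted by -0.06 under both. With a median of 58 UMIs per tested gene, single-gene differences between the genotypes under about 0.81 on the log2 scale were not detectable for the typical gene.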

Other observations

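Levels of genes outside the rule also varied with depth inside the low-RNA barcodes. Under 2000 UMIs lay 18 WT and 17 KO barcodes, from 2000 to under 4000 lay 53 and 35, and from 4000 to the limit lay 48 and 79. Treml1 had 388, 553 and 1078 CPM in these classes in WT and 820, 1037 and 1247 in KO. Actb had 1832, 2087 and 4107 CPM in WT and 2542, 3486 and 4620 in KO. Both were higher in each deeper class. Slc6a4 had 846, 747 and 184 CPM in WT, but 246, 336 and 301 in KO. Rule genes are not given here, since a shallow barcode needs a larger share of them to be kept; the part of that choice in the values of the other genes was not tested.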
